A study of Mus musculus with 8 samples.

Results

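Genes of 8 matrix metalloproteinases (Mmp2, Mmp3, Mmp8, Mmp9, Mmp10, Mmp12, Mmp13 and Mmp14), of the aggrecanase Adamts4 and of the metalloproteinase inhibitor Timp1 were followed in mouse skin. The members were chosen by name, as secreted or membrane-bound enzymes of matrix turnover and their inducible inhibitor, with earlier results of these data known. They were 10 of the 22740 genes listed. Shares and ranks over all genes are given beside them as a description. All 10 passed the filter on low counts that left 15163 genes for testing.

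Matrix metalloproteinases are zinc enzymes that are made as inactive proenzymes and cut collagens, proteoglycans, cytokines and each other. In skin they are known for wound repair, in which keratinocytes at the wound edge, fibroblasts, neutrophils and macrophages each make a different subset. TIMP1 binds the active site of most secreted members of the family, so the amount of active enzyme depends on the balance of enzyme and inhibitor as well as on proenzyme cleavage. The values below are RNA levels and hold no measure of enzyme activity.

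The libraries came from the back skin of 8 BALB/c females on a low-fibre diet, 1 library for each animal, in 4 groups of 2. Butyrate mice had 400 mM sodium butyrate in their water, starting 2 weeks ahead of the allergen, and CTL mice had none (the labels call the groups SCFA and vehicle). Lesional skin, which the labels call atopic dermatitis, was shaved and treated with house dust mite (HDM) extract. It received 15 µg at a time, 4 times within 2 weeks, on a gauze under an occlusive dressing. Mice of all 4 groups were aged 6 to 8 weeks. Baseline skin had received no allergen. Whether it was shaved or dressed is not stated for these libraries, so shaving and dressing were not separated from HDM exposure. HDM extract has protease activity of its own, and the model is one of barrier breach as well as of allergy. In the labels the baseline animals are numbered as one set and the lesional animals as another, so HDM exposure and a difference between the sets cannot be told apart. Nothing beyond separate sample labels describes how the 2 mice of a group were housed or processed, and p-values measure only the spread between such libraries.

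Library totals ran from 18004136 to 21085544 counts. Levels are counts divided by the library size and expressed as CPM after scaling by the trimmed mean of M-values (TMM), and comparisons between genes use CPM per kilobase of exon (RPKM). Differences are fitted log2 fold changes ± standard error, and a gene was called at a Benjamini-Hochberg FDR below 0.1 with a fold-change above 2 in edgeR's quasi-likelihood test. A single value over 2 against 2 libraries cannot go below p = 0.333 in an exact two-sided permutation test.

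The library of baseline butyrate replicate 3 stood apart. The summed level of 13 hair follicle genes was 19220 CPM in it and 19.4 to 32.6 CPM in the other 7 libraries. Between the 2 baseline butyrate libraries, 3757 of 14198 genes lay more than 2-fold apart, against 203 to 683 in the other groups. Among the members, Mmp3, Mmp9 and Mmp10 did so. Calls in each comparison and the fold changes most affected are therefore given with and without it. Skeletal muscle genes summed to 9477 to 44300 CPM, so all libraries contained muscle, with 9477 CPM in the library that stood apart and 12150 to 22760 CPM in lesional skin. In whole skin, fewer cells of a type and less RNA per cell cannot be told apart.

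HDM exposure of CTL mice was accompanied by higher RNA of the collagenases Mmp13 and Mmp8, the stromelysin Mmp10, the gelatinase Mmp9, the elastase Mmp12, Adamts4 and Timp1. In lesional CTL against baseline CTL skin, 7 of the 10 members were called higher, where 3.58% of all tested genes were called and 2.37% were called higher. The other 3, Mmp3, Mmp14 and Mmp2, also had higher levels in both lesional libraries but were not called. The median log2 fold change of the 10 was 3.89, beside -0.02 over all tested genes. The groups did not overlap for any of the 10 members, as was the case for 75.2% of all genes in this comparison.

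**Figure D1:**
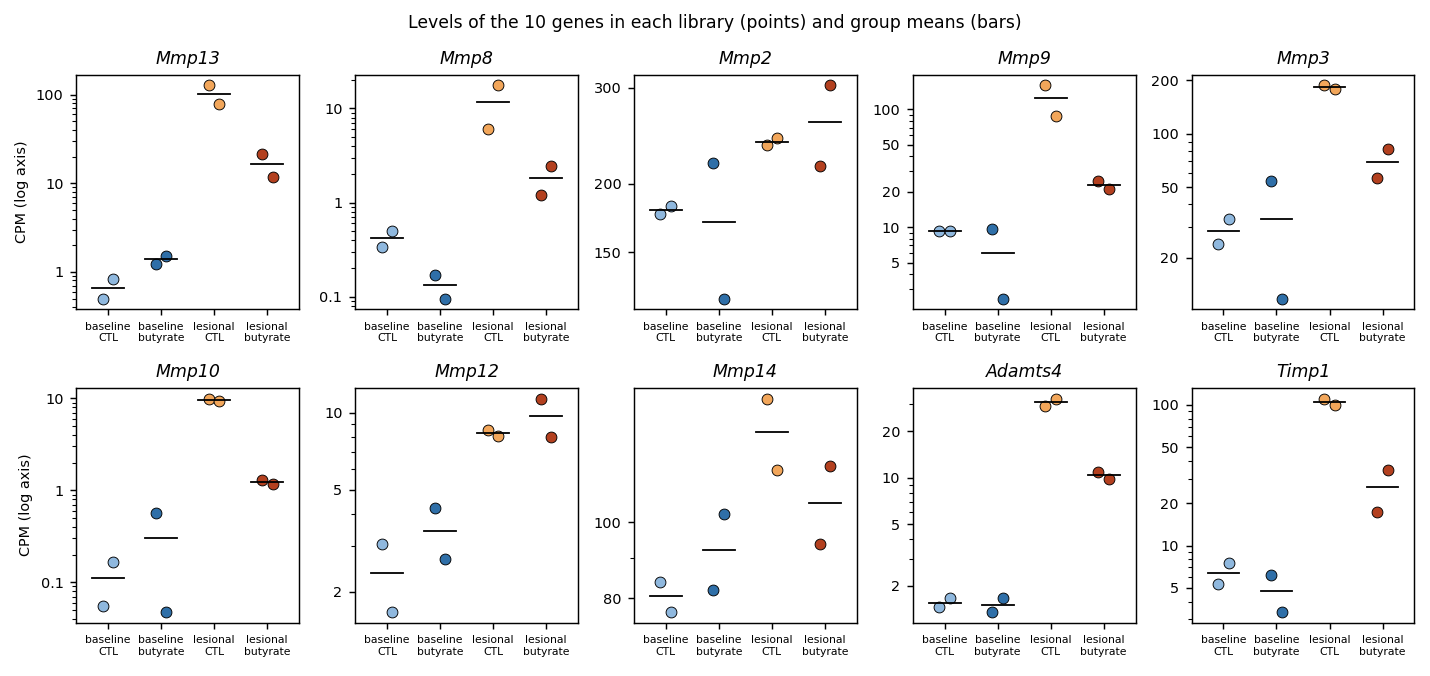
Levels of the 10 genes in CPM on a log axis that differs between panels, with 1 point per mouse, a bar at the mean of 2 mice, and the 4 groups along the x axis. Lesional CTL libraries lie above baseline CTL libraries in every panel, and for Mmp3, Mmp8, Mmp9, Mmp10, Mmp13, Adamts4 and Timp1 the lesional butyrate libraries lie below those of lesional CTL.

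Mmp13 encodes collagenase-3, the main interstitial collagenase of mouse tissues. Its level was 0.500 and 0.833 CPM in baseline CTL, 128 and 78.2 CPM in lesional CTL, 1.24 and 1.52 CPM in baseline butyrate, and 21.4 and 11.7 CPM in lesional butyrate skin. All 4 lesional libraries were above all 4 baseline libraries, and lesional CTL was above lesional butyrate without overlap. The rise in CTL mice was 7.26 ± 0.51 on the log2 scale (FDR = 0.00725, edgeR), which ranked 10 by p-value among 15163 genes. As a ratio of summed counts, 4096 against 24, the level was 152 times that of baseline CTL skin, with a 95% exact interval of 102 to 238 that covers counting error only.

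Mmp8, or collagenase-2, is stored in neutrophil granules. It was at 0.333 and 0.500 CPM in baseline CTL and at 5.98 and 17.7 CPM in lesional CTL skin. The lesional pair did not overlap with baseline but lay about 3-fold apart, the widest spread of the 10 genes in that group. The rise was 4.81 ± 0.73 (FDR = 0.0411, edgeR).

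Mmp3 and Mmp10 encode stromelysin-1 and stromelysin-2, broad enzymes that also activate procollagenases. Mmp3 was already at 24.1 and 33.0 CPM in baseline CTL skin and was at 188 and 178 CPM in lesional CTL skin. Its log2 fold change of 2.68 ± 0.67 was not called (FDR = 0.115, edgeR). Mmp10, which keratinocytes at wound edges express, went from 1 and 3 counts in baseline CTL to 187 and 202 counts in lesional CTL libraries. That is 0.0556 and 0.167 CPM against 9.98 and 9.32 CPM, a ratio of 86.7 with an exact interval of 33.6 to 320 for counting error (FDR = 0.0373, edgeR). The 2 paralogs share sequence, and 8.39% of the 50-base words of Mmp3 transcripts occur in another gene, chiefly Mmp10, and 8.37% of those of Mmp10 in Mmp3. Counts from such stretches are uncertain between them.

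The gelatinases Mmp9 and Mmp2, which cut denatured collagen and basement membrane collagen, differed from each other. Mmp9 was at 9.23 and 9.27 CPM in baseline CTL and at 160 and 88.5 CPM in lesional CTL skin, a rise of 3.75 ± 0.64 (FDR = 0.0508, edgeR). Mmp2, a product of fibroblasts, was at 176 and 182 CPM in baseline CTL and at 235 and 243 CPM in lesional CTL skin, a log2 fold change of 0.42 ± 0.29 (FDR = 0.452, edgeR). Mmp14, the membrane-bound enzyme that activates pro-MMP2, was at 84.0 and 76.9 CPM and then at 144 and 117 CPM, with 0.70 ± 0.19 on the log2 scale (FDR = 0.137, edgeR). The fold changes of Mmp2 and Mmp14 were the smallest of the 10 genes in this comparison.

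Mmp12 encodes the macrophage elastase. Its level was 3.06 and 1.67 CPM in baseline CTL and 8.54 and 8.12 CPM in lesional CTL skin, a rise of 1.82 ± 0.40 (FDR = 0.0858, edgeR). It was the member with the smallest called rise. No gene of the macrophage marker list was called in this comparison, with 0 of 10 tested by edgeR and 1 at an unadjusted p under 0.05 (19.7% of all genes). That gene was Mertk, which was lower in lesional CTL skin (log2 fold change -0.91), while 8 of the 10 had positive fold changes. The list summed to 939 to 1260 CPM in baseline CTL and 1630 to 1904 CPM in lesional CTL libraries.

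Adamts4, a secreted protease that cuts aggrecan and versican, had the smallest FDR of the 10 genes in this comparison. It was at 1.45 and 1.67 CPM in baseline CTL and at 29.5 and 32.7 CPM in lesional CTL skin, and the replicates lay close together in every group. The rise was 4.32 ± 0.23 (FDR = 0.00396, edgeR; rank 3 by p-value). Timp1 was at 5.34 and 7.55 CPM in baseline CTL and at 111 and 100 CPM in lesional CTL skin, a rise of 4.03 ± 0.46 (FDR = 0.0278, edgeR).

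The calls in this comparison depended on the libraries that entered the fit. Without baseline CTL replicate 1 or replicate 2, 0 members were called by edgeR, with 0% of all genes. Without either lesional CTL library 2 were called, Mmp13 and Adamts4, with 0.102% and 0.147% of all genes. Without either lesional butyrate library 3 were called, Timp1 being the third, with 0.697% and 0.748% of all genes. Without either baseline butyrate library, including the one that stood apart, 8 were called, Mmp3 being the eighth, with 12.3% and 12.5% of all genes. All 10 fold changes stayed positive in every one of these fits.

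In butyrate-treated mice, HDM exposure was accompanied by a rise that passed the test for Mmp13 and Adamts4, 2 of the 10 members, where 0.35% of all tested genes were called. Mmp13 rose by 3.57 ± 0.44 (FDR = 0.0709, edgeR) and Adamts4 by 2.77 ± 0.22 (FDR = 0.0232, edgeR), the latter from 1.35 and 1.67 CPM to 10.9 and 9.82 CPM. For 8 members, all except Mmp2 and Mmp14, both lesional butyrate libraries were above both baseline butyrate libraries, against 15.7% of all genes that were higher without overlap. The median log2 fold change of the members was 1.98, beside -0.04 over all genes. By limma-voom 1 member was called, Adamts4, with 0.277% of all genes, and by DESeq2 6 were called, with 4.6% of all genes. In a fit of these 4 libraries alone 0 were called, with 0% of all genes.

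Timp1 was at 6.20 and 3.38 CPM in baseline butyrate and at 17.4 and 34.7 CPM in lesional butyrate skin, which is 2.45 ± 0.44 on the log2 scale (FDR = 0.148, edgeR). Mmp8 went from 3 and 2 counts to 25 and 52 counts, a ratio of 14.1 with an exact interval of 5.77 to 44.5 for counting error (FDR = 0.195, edgeR). Mmp9 was at 9.64 and 2.48 CPM and then at 24.7 and 20.9 CPM, and Mmp12 at 4.23 and 2.67 CPM and then at 11.4 and 8.05 CPM. None of these 4 passed the test. In Mmp9 the lower baseline value came from the library that stood apart.

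Without baseline butyrate replicate 3, the members called were Mmp13, Adamts4 and Timp1, 3 of 10 with 5.94% of all genes called. The log2 fold changes of these 3 were then 3.73, 2.93 and 2.07, and those of Mmp9, Mmp3 and Mmp10 were 1.24, 0.36 and 1.11, in place of 1.92, 1.07 and 2.04 with both libraries. The median of the 10 members was 1.22. Both lesional butyrate libraries were above the remaining baseline library for 9 members, all except Mmp2, against 39.3% of all genes. When only baseline butyrate replicate 3 stood for baseline butyrate skin, 9 members were called with 19.1% of all genes, Mmp14 being the exception. Leaving out any 1 of the baseline CTL, lesional CTL or lesional butyrate libraries left 0 members called by edgeR, with 0.0319% and 0.0383% of all genes for the baseline CTL, 0% and 0.032% for the lesional CTL and 0.0128% and 0.0384% for the lesional butyrate libraries.

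The comparison of lesional skin asked how butyrate-treated and CTL mice differed after HDM exposure. No member was called by edgeR, where 0% of all tested genes were called. At an unadjusted p under 0.05 there were 6 members, all with the lower level in butyrate mice, where 4.84% of all genes had such a p. By limma-voom 0 members were called, with 0.0066% of all genes, and by DESeq2 6 were called, with 0.818% of all genes. For 7 members the lesional butyrate libraries lay below the lesional CTL libraries without overlap, against 22.5% of all genes, and the median log2 fold change of the 10 was -1.80, beside -0.01 over all genes.

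**Figure D2:**
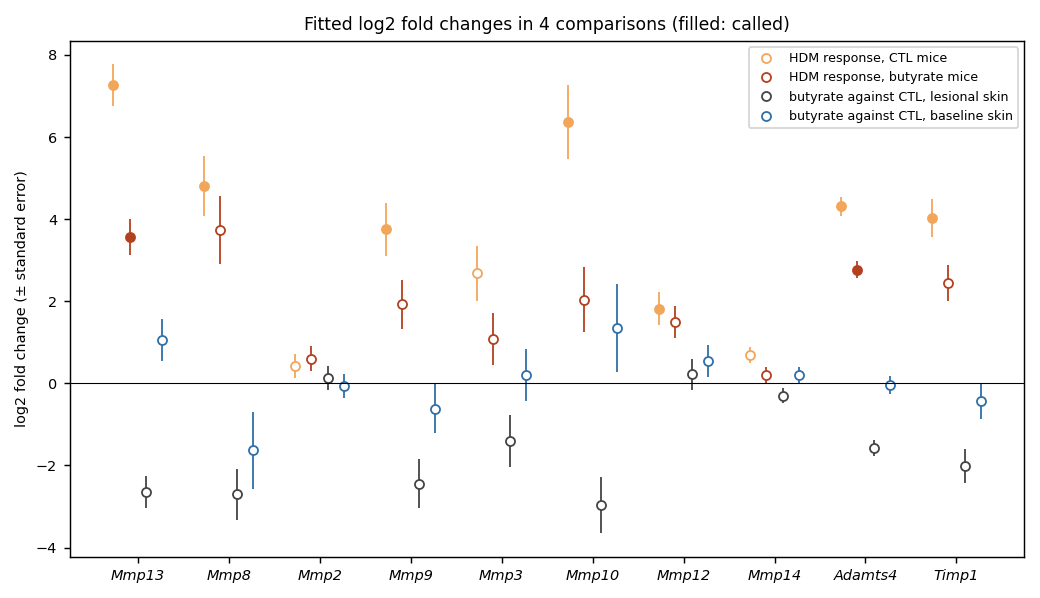
Fitted log2 fold changes on the y axis with standard errors as bars for the 10 genes along the x axis, in 4 comparisons given by colour, where filled points were called (FDR below 0.1 and fold-change above 2) and open points were not. The HDM response of CTL mice has 7 filled points, that of butyrate mice has 2, and the comparisons of butyrate with CTL mice have 0.

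Mean levels in lesional butyrate skin were 12.7% of lesional CTL for Mmp10, 15.3% for Mmp8, 16.0% for Mmp13, 18.3% for Mmp9, 24.7% for Timp1, 33.4% for Adamts4 and 37.9% for Mmp3. The value of Mmp8 rested on lesional CTL replicate 5, without which its log2 fold change was -1.72 in place of -2.71. Adamts4 had the smallest p-value of them (log2 fold change -1.58 ± 0.20, unadjusted p = 0.000151, FDR = 0.737, edgeR) and ranked 3 among 15163 genes. Mmp13 ranked 4 (-2.64 ± 0.39, unadjusted p = 0.000431, FDR = 0.737, edgeR). In lesional butyrate skin Mmp10 was at 1.29 and 1.16 CPM, Mmp8 at 1.19 and 2.42 CPM, Mmp9 at 24.7 and 20.9 CPM, and Mmp3 at 56.5 and 82.3 CPM. The stromelysin and collagenase pairs therefore lay between their baseline CTL and lesional CTL ranges in butyrate mice.

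Mmp2, Mmp12 and Mmp14 did not follow that order. Mmp2 was at 216 and 303 CPM in lesional butyrate skin, on both sides of the lesional CTL values, and Mmp14 was at 93.8 and 118 CPM, overlapping with lesional CTL by 1 library. Mmp12 was at 11.4 and 8.05 CPM, against 8.54 and 8.12 CPM in lesional CTL. Their log2 fold changes were 0.12 ± 0.29, -0.30 ± 0.19 and 0.22 ± 0.38 for Mmp2, Mmp14 and Mmp12, each with FDR = 1 by edgeR. Those of Mmp2 and Mmp12 changed sign when 1 of the lesional butyrate libraries was left out.

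Calls in the lesional comparison changed with the baseline libraries, which do not enter the contrast itself but share the estimate of spread. Without baseline butyrate replicate 3, 6 members were called lower in butyrate mice (Mmp3, Mmp9, Mmp10, Mmp13, Adamts4 and Timp1) with 1.22% of all genes, and the same 6 genes without replicate 1. In a fit of the 4 lesional libraries alone, 2 were called, Mmp10 and Adamts4, with 0.168% of all genes. The log2 fold changes of Mmp13 and Mmp9 stayed between -3.14 and -2.24 and between -2.81 and -1.96 over all fits.

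Before allergen exposure, butyrate and CTL mice were compared at baseline. No member was called by edgeR, where 0% of all genes were called, and none had an unadjusted p under 0.05, against 3.49% of all genes. Limma-voom and DESeq2 called 0 members as well, with 0% and 0.383% of all genes. The groups did not overlap for 2 of 10 members, against 29.7% of all genes: Mmp13 was higher in butyrate mice (log2 fold change 1.05 ± 0.51, unadjusted p = 0.0824, FDR = 0.714, edgeR) and Mmp8 was lower (-1.63 ± 0.94, FDR = 0.714, edgeR), the latter on 5 against 15 summed counts. Mmp2 and Mmp3 illustrate the spread of the baseline butyrate pair, with 218 and 123 CPM and with 54.2 and 11.8 CPM, on both sides of the CTL values.

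Without baseline butyrate replicate 3, edgeR also called 0 members at baseline, with 0% of all genes, and the log2 fold changes of Mmp2, Mmp3 and Mmp9 were 0.28, 0.93 and 0.06. The remaining library lay above both CTL libraries for 6 members and below both for Mmp8 and Adamts4, against 32.1% and 33.6% of all genes. Without replicate 1, so that the library that stood apart was the only one of its group, Mmp3 and Mmp9 were called lower in butyrate mice with 24.1% of all genes.

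The difference between the HDM responses of butyrate-treated and CTL mice was tested as an interaction. No member was called by edgeR, where 0% of all genes were called, and 4 members had an unadjusted p under 0.05, against 4.64% of all genes. Limma-voom called 0 members, with 0% of all genes, and DESeq2 called 2, Mmp13 and Adamts4, with 0.244% of all genes. The fitted response of Mmp13 was smaller in butyrate mice by 3.69 ± 0.63 on the log2 scale (unadjusted p = 0.000961, FDR = 0.84, edgeR), which ranked 2 of 15163 genes. For Adamts4 the response was smaller by 1.55 ± 0.30 (unadjusted p = 0.00169, FDR = 0.84, edgeR), for Timp1 by 1.59 ± 0.59, and for Mmp10 by 4.32 ± 1.26, a value that rests on baseline counts of 1 to 10. Without baseline butyrate replicate 1 the difference for Mmp10 was -1.84. Without baseline butyrate replicate 3 no member was called, with 0% of all genes, and the differences were -3.53 for Mmp13, -1.38 for Adamts4, -1.96 for Timp1 and -5.25 for Mmp10. Without replicate 1, Mmp13 and Adamts4 were called with 20.9% of all genes. All these comparisons share libraries, and the lesional CTL pair enters the CTL response, the lesional comparison and the interaction.

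Per kilobase of exon, the order of the 10 genes differed between groups. Lengths were those of all annotated exons, and that of Mmp12, 7237 bases, is the longest of the members and lowers its RPKM. In baseline CTL skin, Mmp2 led with 52.2 and 54.0 RPKM, followed by Mmp3 with 13.4 and 18.3 and Mmp14 with 14.1 and 12.9, which overlapped with each other, and then by Timp1 with 6.01 and 8.50 RPKM and Mmp9 with 2.61 and 2.62 RPKM. The other 5 were below 0.5 RPKM. Mmp2 made up 56.8% of the summed RPKM of the 10 genes there, and Timp1 7.76%.

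In lesional CTL skin, Timp1 led with 125 and 113 RPKM, above Mmp3 with 104 and 99.0 and Mmp2 with 69.8 and 72.0 RPKM, and these 3 did not overlap with one another. Mmp13, at 47.9 and 29.3 RPKM, and Mmp9, at 45.3 and 25.0 RPKM, overlapped. Mmp14 came next with 24.2 and 19.6 RPKM, then Adamts4 with 6.13 and 6.80 and Mmp10 with 5.80 and 5.41 RPKM, and Mmp8 spread over both of these with 2.47 and 7.29 RPKM. Mmp12 was lowest, at 1.18 and 1.12 RPKM. Timp1 made up 29.4% of the sum and Mmp2 17.5%.

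In lesional butyrate skin, Mmp2 again led, with 64.0 and 90.0 RPKM and 42.7% of the sum. Mmp3 had 31.4 and 45.7 RPKM and overlapped with Timp1, at 19.6 and 39.1 RPKM. Mmp14 followed with 15.7 and 19.8 RPKM, and its upper value lay within the range of Timp1. Mmp9 with 6.97 and 5.92 RPKM and Mmp13 with 8.02 and 4.37 RPKM overlapped, and Adamts4, Mmp12, Mmp8 and Mmp10 were at or below 2.27 RPKM. In baseline butyrate skin Mmp2, with 64.7 and 36.6 RPKM, was the highest in both libraries.

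The summed RPKM of the 8 Mmp genes was 13.8 and 10.4 times that of Timp1 in baseline CTL and 16.1 and 16.3 times in baseline butyrate skin, the latter in the library that stood apart. The ratio was 2.40 and 2.30 in lesional CTL and 6.57 and 4.31 in lesional butyrate skin. The 4 groups did not overlap in this ratio. Most of the baseline sum was Mmp2. Mmp13 alone was 0.0311 and 0.0366 times the level of Timp1 in baseline CTL and 0.383 and 0.260 times in lesional CTL skin.

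**Figure D3:**
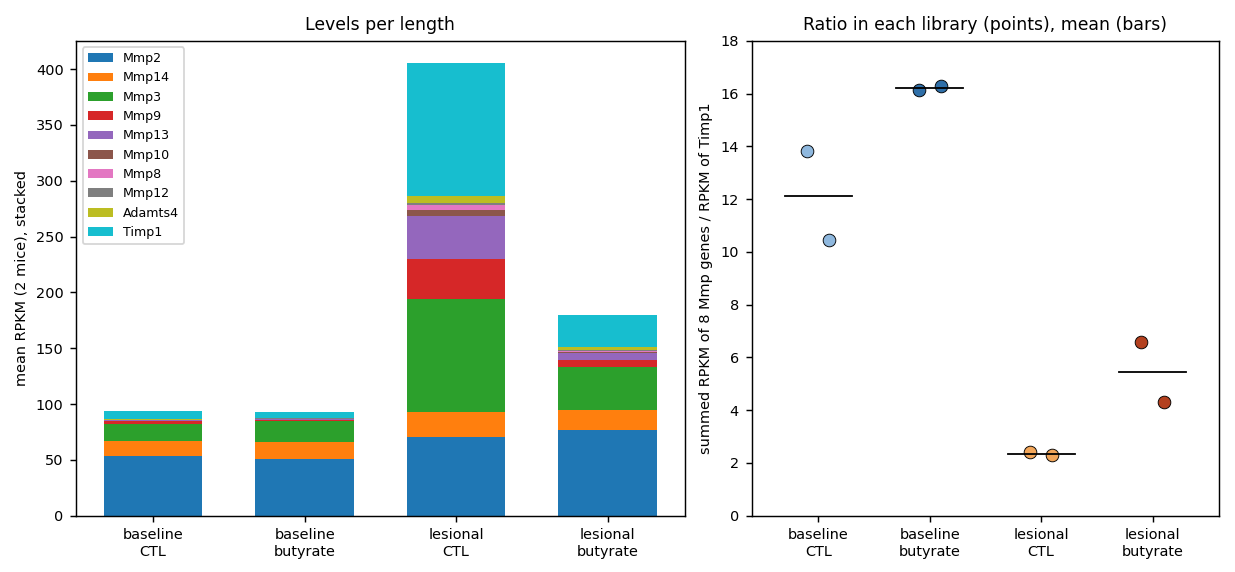
Left, mean RPKM of the 10 genes stacked for each of 4 groups of 2 mice, and right, the ratio of the summed RPKM of 8 Mmp genes to the RPKM of Timp1 in each library (points, with the mean as a bar). Timp1 and Mmp3 take larger shares of the lesional CTL column than of the baseline columns, and the ratio is lowest in lesional CTL libraries, at 2.40 and 2.30.

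Of the 10 genes, 5 lie in a single cluster on chromosome 9. In GENCODE vM21 on GRCm38 it runs from Mmp13 to Mmp8 at chr9:7272514-7568485, over 296.0 kb, and holds 7 annotated genes in the order Mmp13, Mmp12, Mmp1b, Mmp3, Mmp1a, Mmp10 and Mmp8. Mmp1b lies on the minus strand and overlaps the end of Mmp12, and Mmp1a is annotated as a polymorphic pseudogene. The 5 members in it differed in level per length in the same libraries, from Mmp3 at 104 and 99.0 RPKM to Mmp12 at 1.18 and 1.12 RPKM in lesional CTL skin.

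Mmp1b, a matrix metalloproteinase gene of this cluster, had 0 counts in all 4 baseline libraries and 39 and 56 counts in lesional CTL libraries. Against a floor of 3 counts per library this was at least 14.0-fold higher, and it was called (edgeR). In lesional butyrate libraries it had 12 and 5 counts. Its transcripts share 19.7% of their 50-base words with Mmp1a or Mmp12, so that its counts are uncertain to that extent. Mmp1a was below the filter, with 0 to 2 counts at baseline, 9 and 15 in lesional CTL and 3 and 2 in lesional butyrate skin. Within the cluster, Mmp12 was the only one of the 7 genes whose lesional butyrate libraries were not both below the lesional CTL libraries.

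The other members lie alone. Mmp2 is at chr8:92827291-92853420, Mmp9 at chr2:164940780-164955850, Mmp14 at chr14:54431612-54445364, Adamts4 at chr1:171250421-171260637 and Timp1 at chrX:20870166-20874735, all on the plus strand. Timp1 overlaps Syn1 on the other strand. The name of the deposited table describes the counts as reverse stranded, while the labels describe no strand protocol.

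Promoter sequences were matched in RefSeq (GRCm38.p6) for 7 of the 10 members, with 8 starts. The motif TGANTCA, bound by AP-1 (dimers of Fos and Jun proteins), was searched on both strands from 250 bases before to 50 bases after each start and was found in 4 of the 7, Mmp3, Mmp10, Mmp13 and 1 of the 2 starts of Mmp12. It occurs in 7.81% of 32851 promoters. TATAAA was found in 5 of the 7 and in 13.6% of all promoters, and AGGAAG, the core of ETS family sites, in 6 of the 7 and in 35.4% of all promoters. The 3 sequences below are the last 120 bases before the start, 5′ to 3′ on the plus strand, of 3 cluster genes in which both AP-1 and TATA motifs lay before the start. In Mmp12, the fourth cluster gene with both, the AP-1 match lay at -44 to -38 from its second start and TATAAA at 5 to 10 after it. The 3 were picked on both motifs and on a high fold change or level in lesional CTL skin, so they cannot relate motif to response. Mmp8, of the same cluster, had no AP-1 match and is not shown. Its log2 fold change in lesional CTL against baseline CTL skin was 4.81, against 2.68 for Mmp3. AP-1 and TATA matches are in capitals.

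Mmp13 (chr9:7272394-7272513): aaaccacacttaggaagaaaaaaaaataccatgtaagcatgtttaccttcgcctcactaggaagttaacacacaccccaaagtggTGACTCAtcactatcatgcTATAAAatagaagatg
Mmp10 (chr9:7502222-7502341): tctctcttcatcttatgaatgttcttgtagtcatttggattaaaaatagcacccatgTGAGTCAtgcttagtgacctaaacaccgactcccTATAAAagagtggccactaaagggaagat
Mmp3 (chr9:7445702-7445821): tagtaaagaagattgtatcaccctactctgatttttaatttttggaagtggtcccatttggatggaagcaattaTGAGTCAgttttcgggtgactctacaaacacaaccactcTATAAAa

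The AP-1 match lay at -35 to -29 from the start in Mmp13, at -63 to -57 in Mmp10 and at -46 to -40 in Mmp3. TATAAA lay at -16 to -11 in Mmp13, at -29 to -24 in Mmp10 and at -7 to -2 in Mmp3. In Mmp8 it was on the minus strand and spanned the start, at -3 to 3. These matches are descriptions of the letters in these windows, and no binding was measured.

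The rest of the proteolytic system in lesional CTL against baseline CTL skin is given as counts over lists chosen by function, to be read against the 2.37% of all tested genes that were called higher and the 1.21% that were called lower. Of 10 other Mmp genes tested, 2 were called higher, Mmp1b and Mmp19, and the median log2 fold change was -0.25. Mmp19, a basement membrane-cutting enzyme, rose by 1.94 ± 0.42 (FDR = 0.0858, edgeR). Of 16 other Adamts genes, 1 was called higher, the versican-cutting Adamts9 (1.12 ± 0.25, FDR = 0.0867, edgeR), and of 8 Adam genes, which encode membrane-bound sheddases, edgeR called 0, with 2 at an unadjusted p under 0.05, where 19.7% of all genes had such a p.

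Fitted fold changes of the other inhibitors were negative, unlike that of Timp1, though that of Timp2 was only -0.02 ± 0.27 with overlapping groups. Of 4 tested, Timp3 was called lower, by -1.17 ± 0.18 on the log2 scale (FDR = 0.0389, edgeR), and the remaining 3 were not called. Timp3, which binds to matrix and inhibits Adamts and Adam enzymes as well, was at 590 and 502 CPM in baseline CTL, 243 and 241 CPM in lesional CTL and 396 and 383 CPM in lesional butyrate skin. The lesional groups did not overlap, and their difference was 0.69 ± 0.17 (unadjusted p = 0.00661, FDR = 0.737, edgeR).

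The plasminogen system, whose product plasmin activates several proenzymes, had 3 of 7 genes called higher. Plaur, the urokinase receptor, rose by 2.69 ± 0.29 (FDR = 0.0262, edgeR), from 4.72 and 5.00 CPM to 26.2 and 36.6 CPM, and was at 11.3 and 10.6 CPM in lesional butyrate skin. Among 17 matrix substrates 2 were called higher, among them the provisional matrix protein Tnc (4.37 ± 0.68, FDR = 0.0428, edgeR).

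Of 8 ligands known to induce Mmp genes, 5 were called higher, among them Il1b (5.23 ± 0.61, FDR = 0.0294, edgeR) and Il6 (4.93 ± 0.66, FDR = 0.0372, edgeR). Il1b was at 4.56 and 2.55 CPM in baseline CTL, 132 and 136 CPM in lesional CTL and 19.9 and 25.5 CPM in lesional butyrate skin. Of 10 transcription factor genes, 1 was called higher, the AP-1 subunit Fosl1 (2.87 ± 0.67, FDR = 0.0972, edgeR), with 36.8 and 40.5 CPM in lesional CTL and 48.1 and 15.3 CPM in lesional butyrate skin, which overlapped. In the other 4 comparisons edgeR called 0 genes of these 8 lists. In lesional butyrate against lesional CTL skin, 4.84% of all genes had an unadjusted p under 0.05 by edgeR. Among the lists these were 5 of 17 matrix substrates, 4 of 16 other Adamts genes, 3 of 8 ligands and 2 of 7 plasminogen system genes. There was 1 of 10 other Mmp genes and 1 of 4 other inhibitors, and 0 of 8 Adam and 0 of 10 transcription factor genes.

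Markers of cell types that make these enzymes were followed beside them. Of 9 tested neutrophil genes, 7 were called higher in lesional CTL against baseline CTL skin, led by S100a8 (8.72 ± 0.87) and S100a9 (8.43 ± 0.67, FDR = 0.0228 and 0.00944, edgeR), which stressed keratinocytes also express. The 14 counted neutrophil genes summed to 20.2 and 23.3 CPM in baseline CTL, 25.3 and 17.6 in baseline butyrate, 2675 and 1676 in lesional CTL and 776 and 353 CPM in lesional butyrate skin. Ly6g was at 0 in baseline CTL and lesional butyrate libraries and at 0.107 and 0.231 CPM in lesional CTL libraries, and the granule genes Ngp, Camp, Ltf and Elane were below 0.5 CPM in every library. Mpo had a negative fold change in lesional CTL against baseline CTL skin (-1.41 ± 0.92, FDR = 0.421, edgeR). Within groups the order differed. The lesional CTL and the lesional butyrate library with the higher neutrophil sum had the lower Mmp8 level of its pair. These sums include S100a8 and S100a9, and whether their order is one of neutrophil content was not tested. Ly6g was higher in the lesional CTL library with the higher Mmp8 level. However, 3 counts equal 0.16 and 0.138 CPM in lesional CTL replicates 4 and 5, so no order can be read from Ly6g. The part of neutrophil RNA in the results for Mmp8 and Mmp9 was not tested.

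Injury keratins summed to 1167 and 1018 CPM in baseline CTL, 8548 and 5585 CPM in lesional CTL and 4859 and 3494 CPM in lesional butyrate skin, and 3 of 4 were called higher in lesional CTL skin, including Krt6b (6.38 ± 0.65, FDR = 0.023, edgeR) and Krt16 (5.03 ± 0.36, FDR = 0.00725, edgeR). In both lesional groups the library with the higher keratin sum also had the higher Mmp13, Mmp10, Mmp9 and Mmp12 levels. The same library had the higher neutrophil sum in each pair, so this order does not separate the 2 lists. For Mmp10 the difference was small, at 9.98 against 9.32 CPM in lesional CTL and 1.29 against 1.16 CPM in lesional butyrate skin. Mmp12 was at 8.54 against 8.12 CPM in lesional CTL and at 11.4 against 8.05 CPM in lesional butyrate skin. The library that stood apart had 3332 CPM of these keratins, where Mmp13 was at 1.52 CPM. It also had 19220 CPM of hair follicle genes, and the part of hair follicle RNA in its keratin sum was not tested. The part of keratinocyte number in the Mmp13 and Mmp10 results was not tested.

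Genes of suprabasal, differentiating keratinocytes had the opposite order. The 5 counted summed to 11540 to 12150 CPM in baseline CTL, 2941 to 3921 CPM in lesional CTL, 8260 to 10440 CPM in lesional butyrate and 11380 and 2604 CPM in baseline butyrate skin, the last in the library that stood apart. In lesional CTL against baseline CTL skin 1 of 5 was called lower, Dsg1a (-1.24 ± 0.26, FDR = 0.0738, edgeR). In lesional butyrate against lesional CTL skin edgeR called 0 of 5, with 1 at an unadjusted p under 0.05, and all 5 were higher without overlap, against 22.4% of all genes. The part of these cells in the results for the members was not tested.

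Of 9 fibroblast genes edgeR called 0 in any comparison, with 1 at an unadjusted p under 0.05 in each HDM response (against 19.7% of all genes in CTL and 13.1% in butyrate mice) and 0 in both comparisons of butyrate with CTL skin. They summed to 1941 to 2404 CPM in baseline CTL, 1343 to 2578 CPM in baseline butyrate, 2617 to 3075 CPM in lesional CTL and 1800 to 3649 CPM in lesional butyrate skin. The lowest and highest lesional butyrate sums came from replicates 3 and 4, in which Mmp2 was at 216 and 303, Mmp3 at 56.5 and 82.3 and Timp1 at 17.4 and 34.7 CPM. In lesional CTL replicates 4 and 5, with sums of 2617 and 3075 CPM, Mmp2 was at 235 and 243 CPM. Mmp3, at 188 and 178 CPM, and Timp1, at 111 and 100 CPM, had the opposite order there. Mmp8 had the order of the sum in both lesional pairs, and Mmp14 only in the butyrate pair. In the library that stood apart, the fibroblast sum of 1343 CPM was the lowest of the 8, as were the levels of Mmp2, Mmp3, Mmp9 and Timp1. Mmp8 and Mmp10 were also lowest there, on 2 counts and 1 count. The macrophage (424 CPM) and endothelial (127 CPM) sums were the lowest of the 8 as well. So were the skeletal muscle (9477 CPM), suprabasal (2604 CPM) and basal keratinocyte (7577 CPM) and neutrophil (17.6 CPM) sums. Those of hair follicle, injury keratin and adipocyte genes were not. The part of fibroblast content in the levels of the members was not tested.

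**Figure D4:**
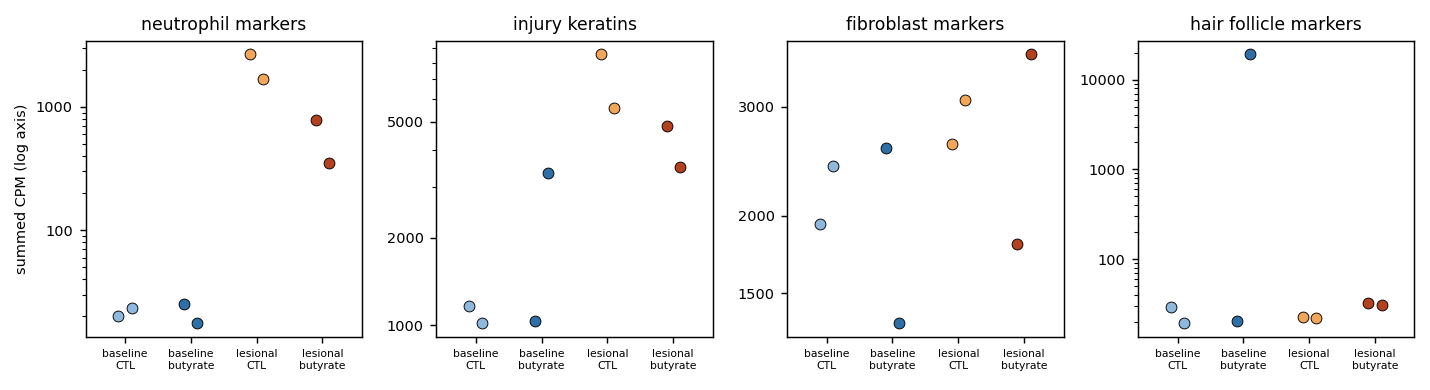
Summed CPM of marker lists for neutrophils, injury-induced keratins, fibroblasts and hair follicle on log axes that differ between panels, with 1 point per library in 4 groups. Neutrophil and injury keratin sums are highest in lesional CTL libraries (1676 to 2675 and 5585 to 8548 CPM), the fibroblast ranges of the lesional groups overlap, and 1 baseline butyrate library has 19220 CPM of hair follicle genes.

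Likeness of pattern was described by the root mean square difference of log2 CPM, centred on each gene, over the 8 libraries and 14197 genes of at least 1 CPM. Among the members the closest pair was Mmp2 and Mmp14 (0.356), both with small changes, followed by Adamts4 and Timp1 (0.496) and by Mmp9 and Timp1 (0.515). Mmp13 was nearest to Lce3b, a late cornified envelope gene (0.337), then to Sprr2j-ps and Il24. Mmp9 was nearest to Cxcl1, a neutrophil-attracting chemokine (0.378), then to Hdc and Nlrp3, and Mmp8 to Cd300lf (0.423), Clec4e and Timp1.

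Mmp10 was nearest to Clec4d (0.481), Clec4e and Cxcl2. Mmp3 was nearest to Samsn1 (0.211), Gp49a and Fgr, and Mmp12 to Dio2 (0.255), F2rl2 and Rassf10. Adamts4 was nearest to Sh2d5 (0.303), to Slpi, an inhibitor of serine proteases, and to Lce3c. Timp1 was nearest to Gad1-ps (0.321), Csf3r and 1810033B17Rik. For Mmp2 and Mmp14, whose levels varied little, the nearest were Sept6, Pdxk and Dhh and Picalm, Ednra and Mrps27.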

How the data were processed

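RNA of snap-frozen dorsal skin was sequenced with 1 library per mouse. The authors aligned reads with STAR 2.5.2 to GRCm38 (submitters' processing notes), assigned them to genes with featureCounts and deposited raw counts, without normalization, in a table named as protein-coding that also lists some annotated pseudogenes. Multimapping, length and composition effects of these steps were not corrected here, apart from TMM scaling and RPKM. Groups came from the treatment and disease state labels.

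All values were computed from these counts. Genes were kept by filterByExpr (minimum count 10) and tested with edgeR 4.0.16 in R 4.3.3 (glmQLFit, robust, 4 group means, 4 residual degrees of freedom, prior count 0.125), with the p-values adjusted over all 15163 genes. The standard error is the absolute log2 fold change over the square root of F. Exon lengths and positions came from GENCODE vM21. Scripts were tested on simulated counts. Other settings tried were RLE scaling, limma-voom (limma 3.58.1), DESeq2 1.42.0, no filter, an FDR threshold of 0.05, no fold-change minimum, a prior count of 2, fits of only the libraries compared, and leaving out each library. Intervals of count ratios are exact binomial (95%) and cover counting error only.

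The members and lists were chosen with earlier results of these data known. All members were named, and of each other list up to 2 called genes with the largest fold change and a mean of at least 1 CPM, all genes of the chromosome 9 cluster, and the 3 most alike genes of each member. Of the marker lists for skin, genes that were not counted are not analysed here. Some genes that the rule would name are not reported here.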

Additional observations from a re-analysis of the deposited data

How the results depend on the processing

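With 2 mice per group, 1 library decided most calls, and low counts limit Mmp8, Mmp10 and Mmp1b at baseline. No paired analysis was possible because no pair of compared groups has more than 1 replicate number in common. Leaving out 1 library at a time gave 0 to 8 members called in the CTL response, 0 to 9 in the butyrate response, 0 to 6 in the lesional comparison, 0 to 2 at baseline and 0 to 2 for the difference between responses, where 7, 2, 0, 0 and 0 were called with all libraries. The number called in the butyrate response was 1 at an FDR below 0.05, 1 by limma-voom, 6 by DESeq2 and 0 with only its 4 libraries. In the lesional comparison DESeq2 called 6 and a fit of its 4 libraries 2, and for the difference between responses DESeq2 called 2. The cause of these changes was not tested.

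Of single gene values, 14 changed sign, all of members that were not called. At baseline the log2 fold change of Mmp3 was -0.20 by limma-voom. Over the fits that left out 1 library, the baseline values ran from -1.28 to 0.93 for Mmp3, -0.54 to 0.28 for Mmp2, -1.90 to 0.060 for Mmp9, -1.13 to 2.29 for Mmp10 and -0.20 to 0.10 for Adamts4. In lesional skin they ran from -0.15 to 0.34 for Mmp2 and from -0.049 to 0.45 for Mmp12, and for the difference between responses from -0.16 to 0.66 for Mmp2 and from -0.82 to 0.051 for Mmp12.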

Other observations

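Some related genes had their highest level in the library that stood apart, or a high level there, and were singled out after their values were seen. Adamts20 was at 36.7 CPM in baseline butyrate replicate 3 and at 3.63 to 10.3 CPM in the other 7 libraries, and Adamts18 at 11.9 CPM against 0.744 to 3.11 CPM. The proteoglycan gene Acan, a substrate of Adamts4, was at 4.43 CPM in that library and at or below 0.186 CPM elsewhere. Mmp20, which is known from tooth enamel, was counted in that library only, at 0.905 CPM. Tnc was also higher there, at 135 CPM, than in the other 3 baseline libraries, at 31.9 to 46.6 CPM.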
